A study of Oryza sativa with 6 samples.

Results

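The short-arm ends of rice chromosomes 11 and 12 were described here through every listed locus whose identifier number runs from 100000 up to, but not including, 170000 on either chromosome. Rice identifiers give the chromosome and then a number that follows the order of loci along it. The rule found 966 loci, 472 on chromosome 11 and 494 on chromosome 12, out of 39477 listed in all, and 6 further loci of the range were set aside by it and are not analysed here. Apart from those 6, members were taken by identifier range, and the range was chosen with earlier results of these data known. Levels are FPKM, fragments counted relative to transcript length and to the size of the library.

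The libraries came from mature leaves of Oryza sativa, sampled at 60 days after germination from greenhouse plants kept at 30 °C in the day and 25 °C in the night. An SRL1 knockout, srl1-KO, gave 3 libraries, and its control without the knockout, non-KO, gave another 3. In rice, SRL1 is known as a gene that affects how far the leaf blade rolls. The labels name no rice variety, no allele and no number of knockout lines, and they speak of leaves from a single plant, so p-values measure the spread between these libraries, which may be technical.

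The 2 ends are known as one of the clearest duplications in the rice genome. Most genes near the tip of chromosome 11 have a copy in the same order near the tip of chromosome 12, and the copies have stayed alike in sequence, in part because sequence is exchanged between them by gene conversion. Copies this alike can share sequencing reads, so that reads of one may be credited to the other. The file gives no gene names, products or sequences for these identifiers, and the reference table used here holds 1 identifier of the file, which lies on another chromosome. Which loci are copies of each other, what they encode and how reads that match both were counted are therefore not stated here, and loci are called by their identifiers. The levels of loci on these ends are uncertain to that extent.

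FPKM summed to between 598611 and 628270 per library, and relative depth, read from barely detected loci, lay between 0.886 and 0.949 in 5 libraries when srl1-KO replicate 1 was set to 1. Absolute depth is unknown. Loci at 1 FPKM or more numbered 19316 to 19342 in srl1-KO libraries and 18861 to 19053 in non-KO libraries, without overlap. The median level of all tested loci was 8.81, 9.02 and 8.72 FPKM in srl1-KO and 8.25, 8.32 and 8.66 FPKM in non-KO, also without overlap. Os07g0102300, the locus taken as SRL1 from published gene assignments, was at 1.62, 2.22 and 1.96 FPKM in srl1-KO and 2.50, 2.70 and 3.30 FPKM in non-KO (log2 change -0.39 ± 0.15 SE, limma adjusted p = 0.107). Its transcript was lower without overlap but did not pass the test, and a knockout can leave a transcript in place. Markers of leaf cells were not checked, because no identifier could be tied to a name.

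A mean level of 1 FPKM or more, the condition for testing a locus, was reached by 240 of 472 loci on the chromosome 11 end (50.8%) and 244 of 494 on the chromosome 12 end (49.4%). Of the remainder, 232 and 250 loci stayed below that level, with 62 and 72 of them listed at 0 in every library. On the rest of the chromosomes 42.4% of chromosome 11 loci and 50.1% of chromosome 12 loci were tested. The median level of tested loci was 6.15 FPKM on the chromosome 11 end and 6.56 FPKM on the chromosome 12 end, beside 6.77 FPKM on the rest of chromosome 11, 9.63 FPKM on the rest of chromosome 12 and 9.05 FPKM over all tested loci.

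Rises outnumbered falls on both ends. On the chromosome 11 end 42 loci rose and 20 fell in srl1-KO, 25.8% of its tested loci, and on the chromosome 12 end 48 rose and 20 fell, 27.9% of its tested loci (limma on log2(FPKM + 1), adjusted p under 0.05 over all tested loci). Among all 19556 tested loci 27.2% were called, 15.3% as rises and 11.9% as falls. The share of loci called on each end was close to that background. In whole leaves, fewer cells of a type and less RNA per cell cannot be told apart. The direction leaned upward, with rises making up 67.7% of calls on the chromosome 11 end and 70.6% on the chromosome 12 end, against 56.3% over all tested loci. More loci at 1 FPKM and a higher median level in the srl1-KO libraries, given above, moved in the same direction, and their part in these counts was not tested.

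The rest of the same chromosomes leaned upward as well. Rises were 71.5% of calls on the rest of chromosome 11 (158 rose, 63 fell) and 80.3% on the rest of chromosome 12 (171 rose, 42 fell). The median log2 change was 0.18 on the chromosome 11 end and 0.23 on the rest of it, and 0.19 on the chromosome 12 end and 0.19 on the rest of it, with 0.11 over all tested loci. Short-arm ends elsewhere, taken by the same identifier numbers on the other 10 chromosomes, had 410 rises and 214 falls (65.7% rises) and a median of 0.17. Their share of rises ran from 48.5% on chromosome 3 (47 rose, 50 fell) to 82.6% on chromosome 4, where few loci were called (19 rose, 4 fell). These regions were set side by side as counts and medians, and no difference between them was tested.

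Fewer loci were called as rises when single libraries were left out, on the ends and over all tested loci alike. Over all tested loci rises numbered 2995 with every library. They numbered 1737 and 1330 without srl1-KO replicate 1 or 2, and 1727 and 1955 without non-KO replicate 1 or 2. Without srl1-KO replicate 3 or non-KO replicate 3 the chromosome 11 end had 38 and 37 rises and the chromosome 12 end 38 and 41. Without srl1-KO replicate 1, srl1-KO replicate 2 or non-KO replicate 1 the chromosome 11 end had 27, 21 and 23 rises, and without srl1-KO replicate 1, srl1-KO replicate 2 or non-KO replicate 2 the chromosome 12 end had 28, 23 and 31. With TMM scaling, a scaling that shifts all libraries towards a common centre, the split was 29 rises and 21 falls on the chromosome 11 end and 36 and 21 on the chromosome 12 end (58.0% and 63.2% rises), against 44.2% rises over all loci. Falls moved less and numbered 14 to 20 on the chromosome 11 end and 14 to 18 on the chromosome 12 end when 1 library was left out.

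**Figure D1:**
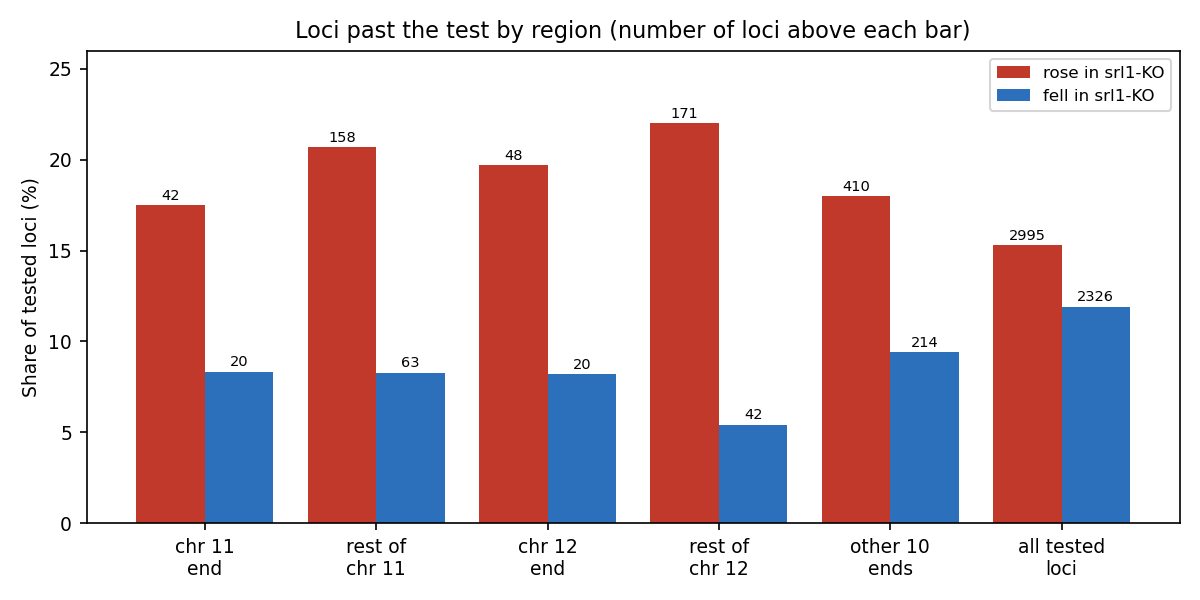
Share of tested loci that rose (red) or fell (blue) in srl1-KO relative to non-KO, in percent on a linear axis from 0, for each end, the rest of its chromosome, the same identifier numbers on the other 10 chromosomes and all tested loci, with the number of loci above each bar. The chromosome 11 end (17.5% rose, 8.33% fell) and the chromosome 12 end (19.7% and 8.20%) have more rises than falls, as do the other regions.

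Large changes were split more evenly. Past a log2 change of 1 in size there were 10 rises and 10 falls on the chromosome 11 end and 15 rises and 12 falls on the chromosome 12 end, where 4.41% of all tested loci rose and 6.97% fell by that much. The median log2 change among loci that fell was -1.02 on the chromosome 11 end and -1.23 on the chromosome 12 end. Among loci that rose it was 0.73 and 0.70. Genotypes did not overlap at 40.0% of tested loci on the chromosome 11 end (70 higher, 26 lower in srl1-KO) and at 50.0% on the chromosome 12 end (89 higher, 33 lower), against 47.1% over all tested loci.

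Falls on the chromosome 12 end lay almost all in its second part. Below number 130000, 28 of 112 tested loci rose and 1 fell (Os12g0127800, singled out after its values of 13.7, 14.1 and 10.8 FPKM in srl1-KO and 42.3, 57.5 and 27.7 FPKM in non-KO were seen), and from 130000 on 20 of 132 rose and 19 fell. On the chromosome 11 end 20 of 101 rose and 7 fell below that number, and 22 of 139 rose and 13 fell above it. Falls were 0.893% and 14.4% of tested loci in the chromosome 12 parts, and 6.93% and 9.35% in the chromosome 11 parts. Over all tested loci 15.3% rose and 11.9% fell. Like parts of other chromosome ends were not counted. The median log2 change of the parts was 0.29 and 0.10 on the chromosome 12 end and 0.22 and 0.17 on the chromosome 11 end. The boundary was placed after the windows of 10000 numbers had been seen, so the split is a description with no test. Falls in the first part of the chromosome 12 end stayed at 1 or 2 when any library was left out and were 2 with TMM scaling, while rises there numbered 14 to 20 with 1 library left out, with 16, 14 and 15 without srl1-KO replicate 1, srl1-KO replicate 2 or non-KO replicate 2. From number 130000 on, the chromosome 12 end had 12 rises beside 16 falls once srl1-KO replicate 1 was left out and 9 rises beside 13 falls once srl1-KO replicate 2 was. That part of the chromosome 11 end had 12, 7, 9 and 13 rises without srl1-KO replicate 1, srl1-KO replicate 2, non-KO replicate 1 or non-KO replicate 2, and 12 rises beside 14 falls with TMM scaling. Falls below number 130000 on the chromosome 11 end numbered 4, 3 and 4 without srl1-KO replicate 1, srl1-KO replicate 2 or non-KO replicate 1.

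**Figure D2:**
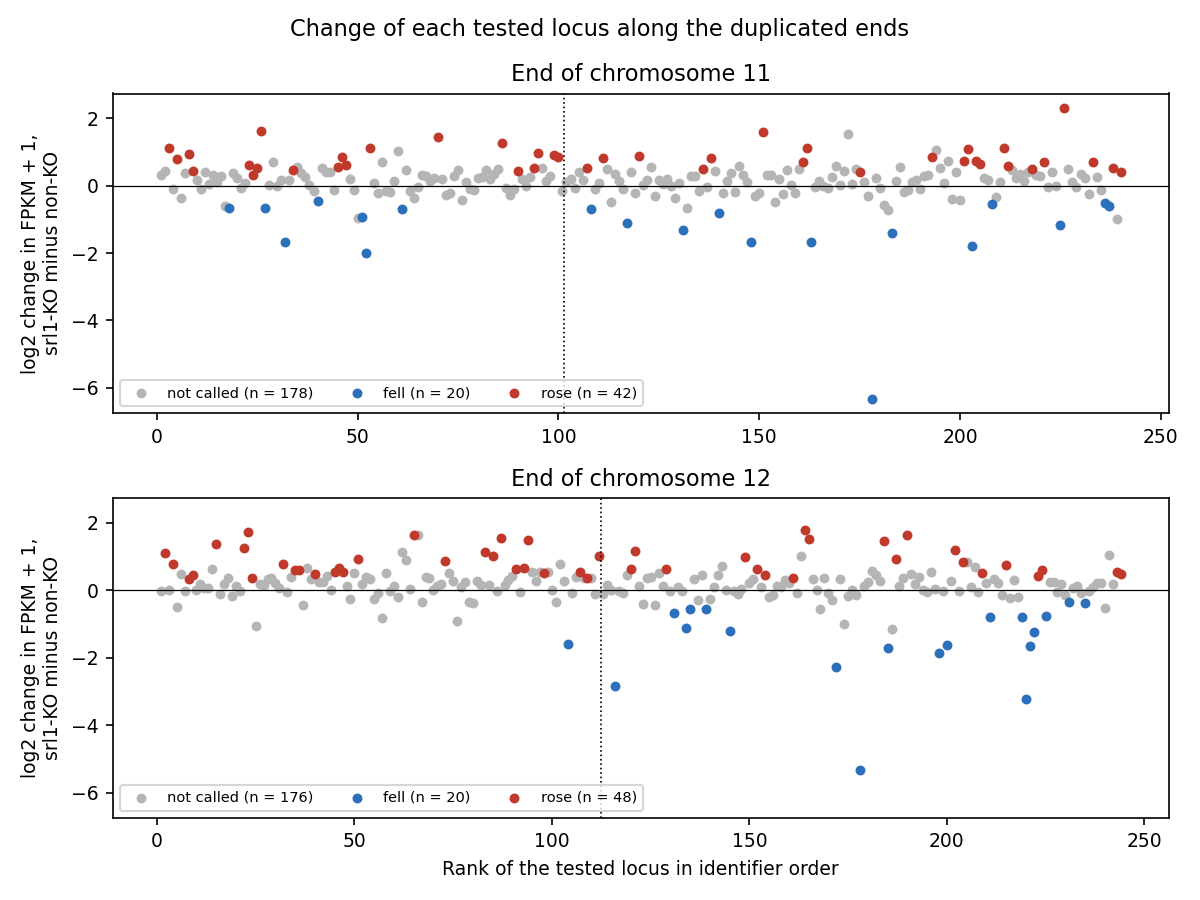
Log2 change in FPKM + 1, srl1-KO minus non-KO, of each tested locus in identifier order, for the chromosome 11 end (240 loci) and the chromosome 12 end (244 loci), with rises in red, falls in blue, loci not called in grey and number 130000 as the dotted line. Left of that line the chromosome 12 end has 1 blue point, and the lowest point of each end, at -6.32 and -5.32, lies to its right.

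The strongest fall on each end was found at nearly the same place on both chromosomes. Os11g0151400 was at 0.925, 0.292 and 0.0208 FPKM in srl1-KO libraries 1, 2 and 3, against 84.8, 192 and 76.9 FPKM in non-KO libraries 1, 2 and 3. Os12g0150200 was at 2.14, 0.446 and 0.0656 FPKM in srl1-KO, against 55.0, 116 and 46.0 FPKM in non-KO. Genotypes were far apart at both loci, and the 6 libraries stood in the same order at both. At Os11g0151400 the mean was 0.412 ± 0.464 FPKM in srl1-KO and 118 ± 64.5 FPKM in non-KO, 286-fold lower in srl1-KO (SD, n = 3 each). Its log2 change was -6.32 with an SE of 0.39 (limma adjusted p = 0.000192). At Os12g0150200 the means were 0.883 ± 1.10 FPKM in srl1-KO and 72.2 ± 37.9 FPKM in non-KO, 81.8-fold lower in srl1-KO (SD, n = 3 each). Its log2 change was -5.32 with an SE of 0.49 (limma adjusted p = 0.000723). Both calls held in all 16 other settings of the fit.

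A rise of similar form was found close to the tips. Os11g0106100 was at 7.28, 8.14 and 4.48 FPKM in srl1-KO and 1.02, 1.68 and 1.63 FPKM in non-KO, so that it rose by 1.62 ± 0.23 (log2 scale, SE; limma adjusted p = 0.00391). Os12g0105600 was at 7.31, 7.16 and 4.98 FPKM in srl1-KO and 0.796, 1.40 and 1.59 FPKM in non-KO and rose by 1.73 ± 0.21 (log2 scale, SE; limma adjusted p = 0.00197). Every srl1-KO library was above every non-KO library at both loci, and srl1-KO replicate 3 was the lowest of the knockout libraries at both. A second such couple, Os11g0118300 and Os12g0117400, was at 9.27, 15.1 and 10.1 FPKM and at 8.78, 11.9 and 7.04 FPKM in srl1-KO. In non-KO it was at 4.71, 2.89 and 3.28 FPKM and at 2.66, 1.73 and 2.31 FPKM. The log2 changes were 1.43 ± 0.22 SE (limma adjusted p = 0.00556) and 1.65 ± 0.21 SE (limma adjusted p = 0.00247). The srl1-KO libraries stood in different orders at the 2 loci, and their values differed by a root mean square of 0.436 on the log2 scale. All of these calls held in every other setting in which the locus was tested.

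Prompted by these couples, and so after values had been seen, loci with close values on the 2 ends were sought in a uniform way. For each tested locus the closest locus on the other end was found by the root mean square difference of log2(FPKM + 1) over the 6 libraries, and a couple was kept where each was the closest to the other at a difference under 0.2. There were 71 such couples between the ends, and in 11 of them the identifier numbers lay within 2000 of each other. All 11 lay within 1000. The same search between either end and the ends of the other 10 chromosomes gave 0 to 7 couples within 2000 and 0 to 3 within 1000 (20 chromosome pairs). Over all 65 other pairs of chromosome ends the highest counts were 8 within 2000 and 4 within 1000. The number of couples found differed between chromosome pairs, so shares were compared as well. Within 2000 the share was 15.5% for chromosomes 11 and 12 and 15.9% for chromosomes 4 and 5 (7 of 44 couples), so the 2 ends did not stand apart at that distance. The distance of 1000 is narrower than the main one of 2000 and holds all 11 couples. Within it the share was 15.5% for chromosomes 11 and 12, and the next highest was 6.82% for chromosomes 4 and 5. That contrast depends on the distance used, which was not planned. With a distance of 5000 the 2 ends gave 16 of 71 couples, and chromosomes 8 and 11 gave 16 of 56. The 2 ends did not stand apart at that distance either. These counts carry no test, and whether the loci of a couple share reads was not tested.

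**Figure D3:**
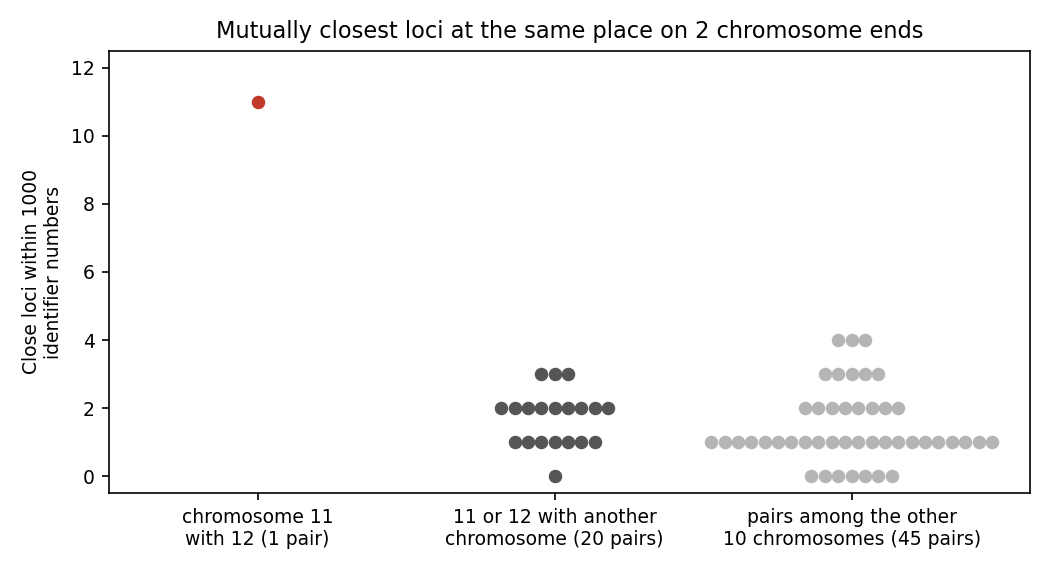
Number of mutually closest loci (root mean square difference under 0.2 on the log2 scale) whose identifier numbers lie within 1000 of each other, 1 point for each pair of chromosome ends, with chromosomes 11 and 12 at the left, 20 pairs of either with another chromosome in the middle and 45 pairs among the other 10 at the right. The 11 with 12 point stands at 11, and all other points lie between 0 and 4. The limit of 1000 is an unplanned alternative to the main distance of 2000. At 2000 the share of couples was 15.5% for 11 with 12 and 15.9% for 4 with 5.

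Of the 11 couples near in number, 6 had both members called, 5 had neither called and 0 had only 1 called. The couples were chosen for close values in the same libraries, so a like call and direction within a couple follow largely from that choice. Over all tested loci 27.2% were called, 15.3% as rises and 11.9% as falls. On the chromosome 11 and 12 ends 25.8% and 27.9% were called. The couples are few and were sought after values had been seen, and no difference from these shares was tested. All 6 called couples rose. The most terminal was Os11g0100600, at 21.2, 18.8 and 17.1 FPKM in srl1-KO and 7.01, 10.9 and 7.24 FPKM in non-KO, with Os12g0100500, at 23.3, 20.8 and 18.3 FPKM in srl1-KO and 7.35, 11.7 and 8.52 FPKM in non-KO. Their libraries stood in the same order, and both rose by 1.11 ± 0.18 (log2 scale, SE; limma adjusted p = 0.00637 and 0.00617). Os11g0114600 and Os12g0114100 rose by 1.11 ± 0.16 and 0.91 ± 0.16 (log2 scale, SE; limma adjusted p = 0.00405 and 0.00782). Os11g0114600 was at 26.1, 29.7 and 23.8 FPKM in srl1-KO, against 11.6, 9.67 and 14.2 FPKM in non-KO. Os12g0114100 was at 28.8, 28.2 and 20.8 FPKM in srl1-KO, against 12.8, 12.1 and 14.9 FPKM in non-KO. At both loci all knockout libraries lay above all control libraries.

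The other called couples rose by less. Os11g0102200 and Os12g0101800 rose by 0.78 ± 0.12 and 0.77 ± 0.14 (log2 scale, SE; limma adjusted p = 0.00583 and 0.00854), at 40.7, 48.5 and 51.5 FPKM and 44.9, 58.7 and 54.7 FPKM in srl1-KO. In non-KO they were at 25.1, 26.6 and 29.1 FPKM and 30.5, 27.4 and 33.4 FPKM. Os11g0108932 and Os12g0108200 rose by 0.47 ± 0.11 and 0.60 ± 0.15 (SE; limma adjusted p = 0.0257 and 0.0266), and Os11g0102800 and Os12g0102500 by 0.42 ± 0.10 and 0.44 ± 0.13 (SE; limma adjusted p = 0.0232 and 0.0470). These last 4 calls were weak. The chromosome 11 members kept their call of all libraries left out only without non-KO replicate 3. Os12g0108200 kept it only without srl1-KO replicate 1 or 3, and Os12g0102500 lost it without any 1 library (adjusted p from 0.0574 to 0.125).

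Of the 5 couples with no call, Os11g0113200 and Os12g0112600 differed least from each other, with 10.9, 10.3 and 10.8 FPKM at the first and 10.2, 10.2 and 10.4 FPKM at the second in srl1-KO, against 9.22 ± 0.419 and 9.29 ± 0.655 FPKM in non-KO (SD, n = 3; limma adjusted p = 0.181 and 0.352). At both loci the knockout libraries lay just above the control libraries. A more abundant couple lay 3700 numbers apart and so outside the count. Os11g0127900 was at 155, 167 and 140 FPKM in srl1-KO and 153, 181 and 138 FPKM in non-KO, and Os12g0124200 at 149, 163 and 136 FPKM in srl1-KO and 151, 178 and 139 FPKM in non-KO. In every library these 2 loci lay close together, and neither passed the test (limma adjusted p = 0.928 and 0.752).

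**Figure D4:**
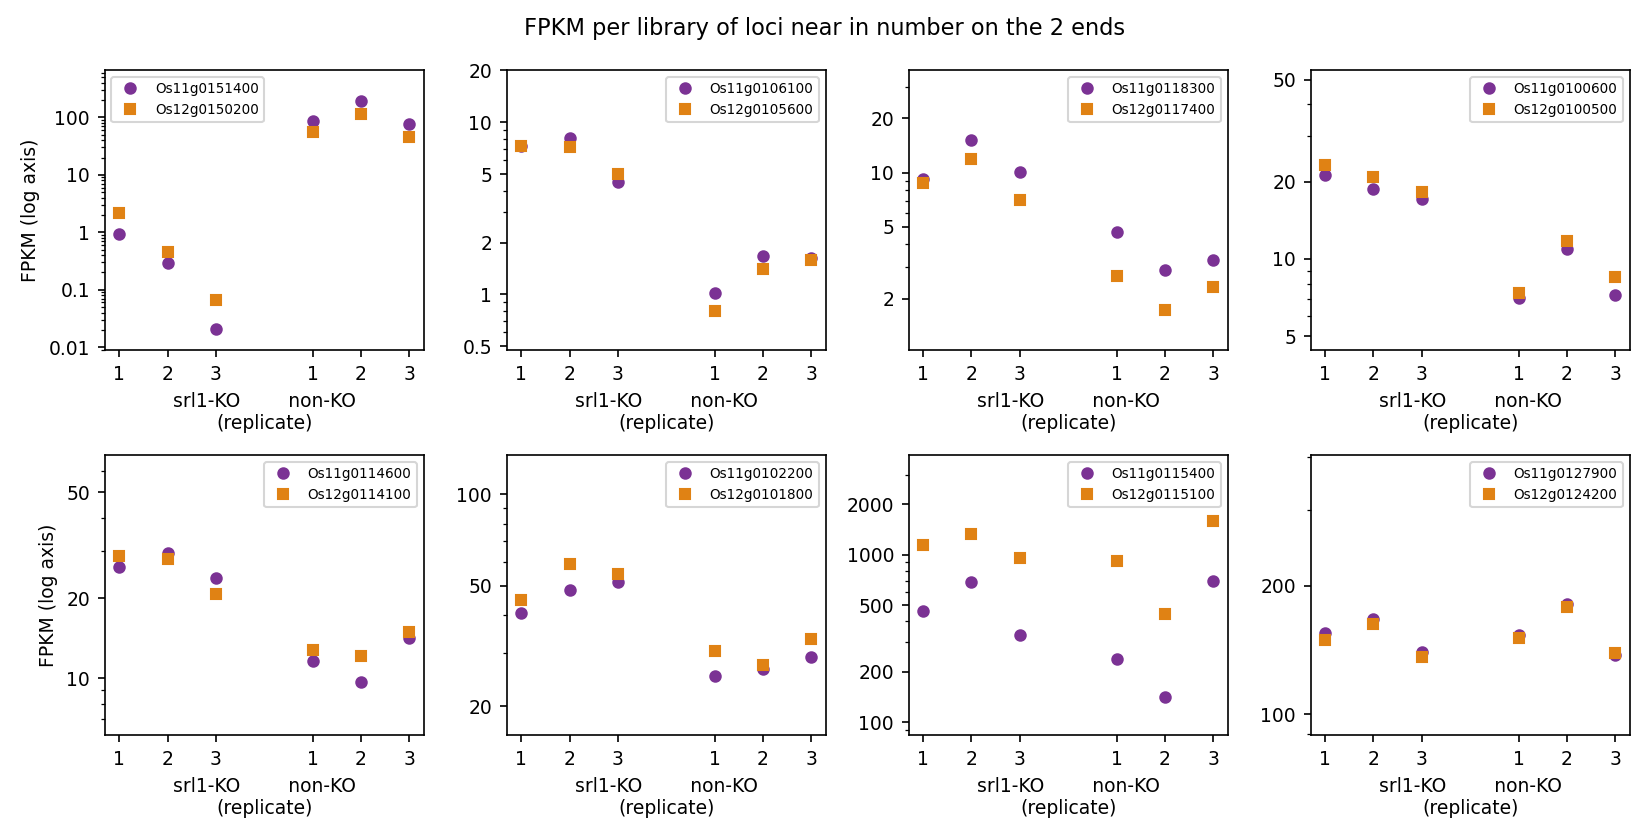
FPKM on a log axis in each srl1-KO library (left) and each non-KO library (right) for 8 couples of loci near in number on the chromosome 11 end (circles) and the chromosome 12 end (squares), 1 panel per couple and 1 point per library. The couples were chosen for close values or for being named near in number, and they range from the fall of Os11g0151400 and Os12g0150200 to the level values of Os11g0127900 and Os12g0124200.

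The 3 most abundant loci of the chromosome 12 end and the second of the chromosome 11 end lay near each other in number. Os12g0115300 led the chromosome 12 end at 1337, 1326 and 1162 FPKM in srl1-KO and 1077, 822 and 1178 FPKM in non-KO, followed by Os12g0115100 at 1139, 1338 and 949 FPKM in srl1-KO and 914, 440 and 1587 FPKM in non-KO. Os12g0115500 came next, at 444 ± 91.6 FPKM in srl1-KO and 547 ± 163 FPKM in non-KO (SD, n = 3 each). None of these passed the test, and the genotypes overlapped at all 3 loci. The 95% intervals of the log2 change ran from -0.11 to 0.76, from -0.68 to 1.46 and from -0.93 to 0.38. On the chromosome 11 end Os11g0115400 was second, at 458, 691 and 331 FPKM in srl1-KO and 239, 141 and 700 FPKM in non-KO (limma adjusted p = 0.396). Its 6 libraries stood in the same order as those of Os12g0115100, with non-KO replicate 3 highest and non-KO replicate 2 lowest.

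The locus with the highest level on either end had no such neighbour among the abundant loci of chromosome 12. Os11g0167800 was at 2753, 2864 and 3077 FPKM in srl1-KO and 2036, 1469 and 1908 FPKM in non-KO, without overlap. Its log2 change was 0.70 ± 0.19 SE (limma adjusted p = 0.0373), a call lost without any 1 library (adjusted p from 0.0574 to 0.117), with TMM scaling (adjusted p = 0.0639), with quantile normalization (0.0872) and with no filter (0.294). It made up between 36.8% and 41.4% of the summed FPKM of the chromosome 11 end in srl1-KO, and between 27.1% and 33.8% in non-KO. The sums themselves were 7390, 7793 and 7438 FPKM in srl1-KO and 6018, 5414 and 6462 FPKM in non-KO, without overlap. Once Os11g0167800 was left out they were 4636, 4929 and 4360 FPKM in srl1-KO and 3982, 3945 and 4554 FPKM in non-KO, and overlapped. On the chromosome 12 end the sums overlapped, at 6054, 6455 and 5787 FPKM in srl1-KO and 5755, 4977 and 6475 FPKM in non-KO.

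Of the 8 loci averaging 100 FPKM or more on the chromosome 11 end another 3 rose, and 0 of the 4 on the chromosome 12 end were called. Over all tested loci 921 averaged as much, and how many of those were called was not counted. At any level 27.2% of all tested loci were called, 15.3% as rises. These loci are few and were added after values were seen, so the 2 ends are not compared by them. Os11g0147800 was at 643, 549 and 403 FPKM in srl1-KO and 252, 190 and 294 FPKM in non-KO (log2 change 1.11 ± 0.23 SE, limma adjusted p = 0.0158, or 0.0615 without srl1-KO replicate 2). Os11g0158600 was at 144, 128 and 148 FPKM in srl1-KO and 75.1, 73.1 and 50.3 FPKM in non-KO (log2 change 1.09 ± 0.17 SE, limma adjusted p = 0.00604). At both, the knockout libraries lay wholly above the control libraries. Os11g0169900 rose least, with 144 ± 6.43 FPKM in srl1-KO and 109 ± 2.80 FPKM in non-KO (SD, n = 3 each; limma adjusted p = 0.0238). TMM scaling or leaving out any library but the third of each genotype ended that call (adjusted p up to 0.0989 over all settings).

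Other large falls on the chromosome 11 end were found at low or moderate levels. Os11g0143200 was at 2.53, 2.62 and 3.29 FPKM in srl1-KO and 11.8, 9.17 and 12.7 FPKM in non-KO (log2 change -1.68 ± 0.16 SE, limma adjusted p = 0.000786). Os11g0114300 was at 0.155 ± 0.0503 FPKM in srl1-KO and 3.69 ± 1.13 FPKM in non-KO (SD, n = 3 each; limma adjusted p = 0.00122), and Os11g0107600 at 0.421 ± 0.270 FPKM in srl1-KO and 3.46 ± 0.0751 FPKM in non-KO (SD, n = 3 each; limma adjusted p = 0.00155). All 3 held in every other setting in which they were tested. Os11g0158666 was listed at 0 in all srl1-KO libraries and at 1.32, 5.93 and 1.62 FPKM in non-KO (limma adjusted p = 0.0217), and its call was lost without any 1 srl1-KO library (adjusted p from 0.0503 to 0.0687).

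Other large falls were found on the chromosome 12 end as well. Os12g0131100 was at 18.1, 14.6 and 6.18 FPKM in srl1-KO and 76.9, 119 and 84.3 FPKM in non-KO, 7.21-fold lower on average (log2 change -2.85 ± 0.37 SE, limma adjusted p = 0.00288). Os12g0147800 was at 22.9, 24.7 and 7.50 FPKM in srl1-KO and 78.9, 83.6 and 86.9 FPKM in non-KO (log2 change -2.28 ± 0.41 SE, limma adjusted p = 0.00911). At both loci srl1-KO replicate 3 was the lowest library, and no libraries of the 2 genotypes overlapped. Os12g0158700 was at 3.73 ± 0.608 FPKM in srl1-KO and 17.0 ± 6.43 FPKM in non-KO (SD, n = 3 each; limma adjusted p = 0.00586).

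The longest run of neighbouring tested loci that fell together lay near the inner limit of the chromosome 12 end. Os12g0164450 fell most within it, to 4.47, 3.38 and 3.07 FPKM in srl1-KO, against 60.4, 37.1 and 32.4 FPKM in non-KO, 11.9-fold lower on average (log2 change -3.22 ± 0.25 SE, limma adjusted p = 0.000387). Os12g0164300, on one side, was at 7.09 ± 1.51 FPKM in srl1-KO and 12.9 ± 0.398 FPKM in non-KO (SD, n = 3 each). On the other side Os12g0164600 was at 0, 0.476 and 0 FPKM in srl1-KO and 3.47, 2.95 and 1.70 FPKM in non-KO, and Os12g0164800 at 15.4, 14.7 and 11.8 FPKM in srl1-KO and 32.4, 29.3 and 43.3 FPKM in non-KO. The 4 falls, of 0.80 to 3.22 in size on the log2 scale, held in every other setting in which the loci were tested. The longest run in either direction held 5 loci on the rest of chromosome 11, 4 on the rest of chromosome 12 and 9 over all annotated loci. How often runs of 4 occur was not counted.

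On the chromosome 11 end the longest run held 4 rises and lay near the tip, from Os11g0105750 to Os11g0106100. Os11g0105750 was at 47.6 ± 4.74 FPKM in srl1-KO and 31.1 ± 3.63 FPKM in non-KO, Os11g0105800 at 15.6 ± 0.728 and 12.3 ± 0.323 FPKM, and Os11g0106000 at 10.3 ± 0.504 and 6.82 ± 0.171 FPKM in the same genotypes (SD, n = 3 each). The fourth was Os11g0106100, described above. The run rests on Os11g0105800, whose adjusted p of 0.0492 rose to 0.0691 to 0.167 when any 1 library was left out, and Os11g0105750 lost its call without srl1-KO replicate 2 or non-KO replicate 1. Neighbours that were both called shared their direction in 14 of 22 cases on the chromosome 11 end and 15 of 18 on the chromosome 12 end, beside 69.8% over all annotated loci.

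Other large rises were found along both ends. Os12g0145100 was at 148, 146 and 110 FPKM in srl1-KO and 38.3, 30.9 and 45.8 FPKM in non-KO, 3.51-fold higher on average (log2 change 1.79 ± 0.18 SE, limma adjusted p = 0.00113). Os12g0155100 was at 20.2, 17.8 and 19.5 FPKM in srl1-KO and 6.11, 5.69 and 4.85 FPKM in non-KO (log2 change 1.63 ± 0.12 SE, limma adjusted p = 0.000312). Os12g0123200 was at 14.9 ± 1.90 FPKM in srl1-KO and 4.68 ± 2.13 FPKM in non-KO (SD, n = 3 each; limma adjusted p = 0.00675). These 3 kept their call in all 16 other settings.

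On the chromosome 11 end Os11g0124500 was at 10.2, 7.66 and 5.03 FPKM in srl1-KO and 2.94, 2.34 and 2.23 FPKM in non-KO (log2 change 1.26 ± 0.24 SE, limma adjusted p = 0.0106). The 2 remaining large rises there depended on single libraries. Os11g0164900 was at 13.6, 8.67 and 1.02 FPKM in srl1-KO and 0.196, 0.466 and 0.361 FPKM in non-KO, and its adjusted p of 0.0498 was missed in 13 of 15 other settings, among them TMM scaling and each library left out but srl1-KO replicate 3. Os11g0145200 was at 5.92, 14.4 and 18.9 FPKM in srl1-KO and 4.09, 2.39 and 3.60 FPKM in non-KO, and its adjusted p of 0.0282 became 0.0607 to 0.0957 when any library but srl1-KO replicate 1 was left out.

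Some neighbouring loci kept a nearly fixed ratio of levels across libraries, and whether such neighbours share reads was not tested. The steadiest couples with at least 1 call were Os11g0105800 with Os11g0106000 and Os11g0102800 with Os11g0102900, where the log2 ratio had an SD of 0.161 and 0.162 over the 6 libraries. On the chromosome 12 end they were Os12g0129000 with Os12g0129400 (SD 0.108) and Os12g0169800 with Os12g0169950 (SD 0.136). These SDs were the 2 lowest among 97 such neighbour couples on the chromosome 11 end and among 115 on the chromosome 12 end. The medians were 0.656 and 0.654, and loci that were not neighbours were not compared. Os12g0169800 was at 53.2 ± 4.83 FPKM in srl1-KO and 36.4 ± 3.69 FPKM in non-KO, and Os12g0169950 at 23.5 ± 0.686 and 16.5 ± 1.23 FPKM in the same genotypes (SD, n = 3 each; limma adjusted p = 0.0198 and 0.0135, lost for both without srl1-KO replicate 1 or 2 and for the first also without non-KO replicate 1). Of the other couples, Os11g0102900 and Os12g0129400 were not called, and Os12g0129000, at an adjusted p of 0.0498, lost its call without any 1 library (adjusted p from 0.0750 to 0.167).

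Below the level for testing, 348 loci of the ends were detected in at least 1 library. In srl1-KO 24 of these lay higher and 7 lower without overlap on the chromosome 11 end, and 13 higher and 8 lower on the chromosome 12 end. That was 14.1% and 4.12% of those detected on the chromosome 11 end and 7.30% and 4.49% on the chromosome 12 end, beside 11.5% and 6.64% of all loci detected below the level for testing. Loci averaging 1 FPKM or more in one genotype and under 0.1 FPKM in the other were 0.499% of all listed loci. They made up 0% of the chromosome 12 end and 0.636% of the chromosome 11 end, 3 of the 966 loci of both. Besides Os11g0158666, these were Os11g0131300, at 1.14, 1.94 and 1.43 FPKM in srl1-KO and 0.00692, 0 and 0.0429 FPKM in non-KO, and Os11g0166450, at 0.546, 1.52 and 1.11 FPKM in srl1-KO and 0.138, 0 and 0.0643 FPKM in non-KO. These 2 were chosen by these values, which are given with no test.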

How the data were processed

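Poly(A) RNA of mature leaves was sequenced in 3 srl1-KO and 3 non-KO libraries. The deposited file holds FPKM values, 1 column per library. HISAT2, DESeq2 and the build IRGSP-1.0 stand in the submitters' processing notes, with no role for any of them. How the authors computed FPKM, which annotation they used and how reads with several matches or strand were treated is not given in the sources used here.

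From these, log2(FPKM + 1) was fitted for 19556 loci averaging 1 FPKM or more, with limma 3.58.1 in R 4.3.3 (trend, two-sided, Benjamini-Hochberg over all tested loci, threshold 0.05). Changes are srl1-KO minus non-KO, and understate low loci. TMM factors (trimmed mean of M values) served as an alternative. The fit was run on simulated data with known changes at few loci. Far more loci were called here, so that run does not check these calls. The fit was repeated with other pseudocounts (0.1, 5), filters, scalings and libraries left out. Named loci were the 5 largest rises and falls without overlap, the 3 most abundant, those near absent in 1 genotype, the longest run and the steadiest neighbours of each end. The close couples, the boundary at 130000 and the other loci of at least 100 FPKM were added after values were seen. The members and lists were chosen with earlier results of these data known. Replicate numbers were not used as pairs.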

Additional observations from a re-analysis of the deposited data

How the results depend on the processing

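Of 44 called loci named above, 29 kept their call in all settings in which they were tested and 15 lost it in at least 1. No called locus of the ends changed sign in any setting. The 62 calls of the chromosome 11 end and the 68 of the chromosome 12 end kept 29 and 36 loci in every setting other than the filter at 5 FPKM. The median log2 change, 0.18 on the chromosome 11 end and 0.19 on the chromosome 12 end, became 0.22 on the chromosome 12 end with a pseudocount of 0.1, 0.10 and 0.11 on chromosomes 11 and 12 with a pseudocount of 5, and 0.06 and 0.05 with no filter. It was 0.12 and 0.10 with TMM scaling, 0.13 and 0.15 with quantile normalization, and 0.11 on the chromosome 11 end with a filter at 5 FPKM. TMM scaling gave a median of 0.03 over all loci, against 0.11. Ending the segments before number 150000 left 13 falls on the chromosome 11 end and 8 on the chromosome 12 end, as fewer loci were counted. Leaving out 1 library gave 2943 to 4649 calls in all, against 5321, and 21 to 38 rises on the chromosome 11 end, 23 to 41 on the chromosome 12 end, 14 to 20 and 14 to 18 falls, medians of 0.16 to 0.20 and 0.18 to 0.20, and 9 to 12 couples near in number. A closeness limit of 0.15 gave 7 couples, against 11. With the replicate number as a block, which uses up residual degrees of freedom, there were 25 rises on the chromosome 11 end and 3649 calls over all loci. Deviations of same-numbered libraries correlated at -0.05, 0.05 and 0.02, and those of differently numbered libraries at -0.16 to 0.16. Why there were fewer calls with the block was not tested. Os12g0115100, not called, had a log2 change of 0.39, which became -0.09 when non-KO replicate 2 was left out and 0.83 when non-KO replicate 3 was. The causes of all these shifts were not tested. The absolute depth is unknown, so no detection limit can be given for loci listed at 0.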
